A study of Mus musculus with 2 samples.

Results

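The renin-angiotensin system was followed through 7 of its genes in single cells of injured mouse kidneys: Ren1, Agt, Ace, Agtr1a, Enpep, Mme and Atp6ap2, of 32285 genes counted in the files. The genes were chosen as components of the pathway, from enzyme and substrate to receptor and peptide-degrading enzymes, and not by a rule on their values. Earlier results of these data were known when they were chosen. All 7 were present in both libraries.

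Renin, made by juxtaglomerular cells in the wall of the afferent arteriole, cuts angiotensinogen to angiotensin I, and angiotensin-converting enzyme turns that into angiotensin II. Angiotensin II acts in the kidney mainly through the type 1 receptor, on smooth muscle, mesangial cells and tubules, and it is removed or changed by membrane peptidases such as aminopeptidase A and neprilysin. The proximal tubule holds a local system of its own, with angiotensinogen, converting enzyme, receptor and peptidases on the same epithelium.

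Kidneys were taken on day 14 after 1 renal artery had been clamped and reopened, and the mice of both groups had received 4 tamoxifen injections. The control library came from mice without Cre (genotype Cre-), and the haplodeficient library from mice of genotype Cdh5-CreERT2; Phd3f/+, in which tamoxifen activates a Cre driven by Cdh5, a cadherin gene of endothelium, and 1 allele of Phd3 (Egln3, a prolyl hydroxylase) is floxed. Age, strain, the number of animals in a library and whether the control mice carried the floxed allele were not given in the labels, which place both libraries in batch 1. Each group is a single library (n = 1), which leaves the differences without a replicate check, and no test was made. Intervals in parentheses are exact 95% intervals that cover counting error only, ratios are haplodeficient over control, and of paired values the control comes first.

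After removal of likely doublets, 8737 control and 9222 haplodeficient cells remained, with medians of 8762 and 5471.5 unique molecular identifiers (UMIs, each a counted transcript molecule) and 10.2% and 2.69% mitochondrial UMIs. The libraries shared 28 of the barcodes that passed the cell filters. Levels are given as CPM, the UMIs of a gene per 1000000 UMIs of a class. Egln3, the targeted gene, stood at 24.2 CPM (58 UMIs) in control and 21.1 CPM (112 UMIs) in haplodeficient endothelial-like cells, a ratio of 0.870 (0.628 to 1.22). Transcripts of a recombined allele may still be counted at their 3′ end, so this gene does not check the labels. Cells were grouped into 15 classes with at least 50 cells in each library, named from marker genes and written here with the ending -like. The tissue label was checked against these markers. All 10 proximal tubule markers, all 9 endothelial markers and all 10 mural markers were at least 2-fold above other cells in their classes in both libraries. No podocyte class was formed, and podocyte genes appeared in an unnamed cluster and in 1 endothelial-like subcluster.

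The libraries differed in their cell makeup, which bears on every total over all cells. Proximal tubule-like cells were 3014 of the control (34.5%) and 345 of the haplodeficient cells (3.74%). The clusters that formed this class were also unequally filled: cluster 4 held 30.0% of its control and 17.7% of its haplodeficient cells, cluster 10 held 19.3% and 39.7%, and cluster 11 held 20.7% and 6.38%. Over all cells, Agt stood at 34.6 CPM in the control and 22.5 CPM in the haplodeficient library, Agtr1a at 19.5 and 7.27 CPM, and Enpep at 44.1 and 20.6 CPM, and for each of them the proximal tubule-like class held most of the control UMIs. Ren1 was at 12.8 and 30.1 CPM, Ace at 11.8 and 12.6 CPM, Mme at 90.6 and 83.4 CPM and Atp6ap2 at 103 and 118 CPM. Levels are therefore given class by class. They rest on UMIs counted at transcript 3′ ends, and the 7 genes are not ranked against each other.

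The genes differed in the classes where they were highest. Ren1 was concentrated in mural-like cells, the pericytes, smooth muscle and mesangial cells around vessels. Agt was highest in descending thin limb-like cells, Ace in monocyte-like cells, Agtr1a in mural-like cells, and Mme and Atp6ap2 in intercalated-like cells, in both libraries. Enpep was highest in proximal tubule-like cells of the control and in mural-like cells of the haplodeficient library. These genes and 20 others of the pathway were kept out of the variable genes used to cluster the cells.

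**Figure D1:**
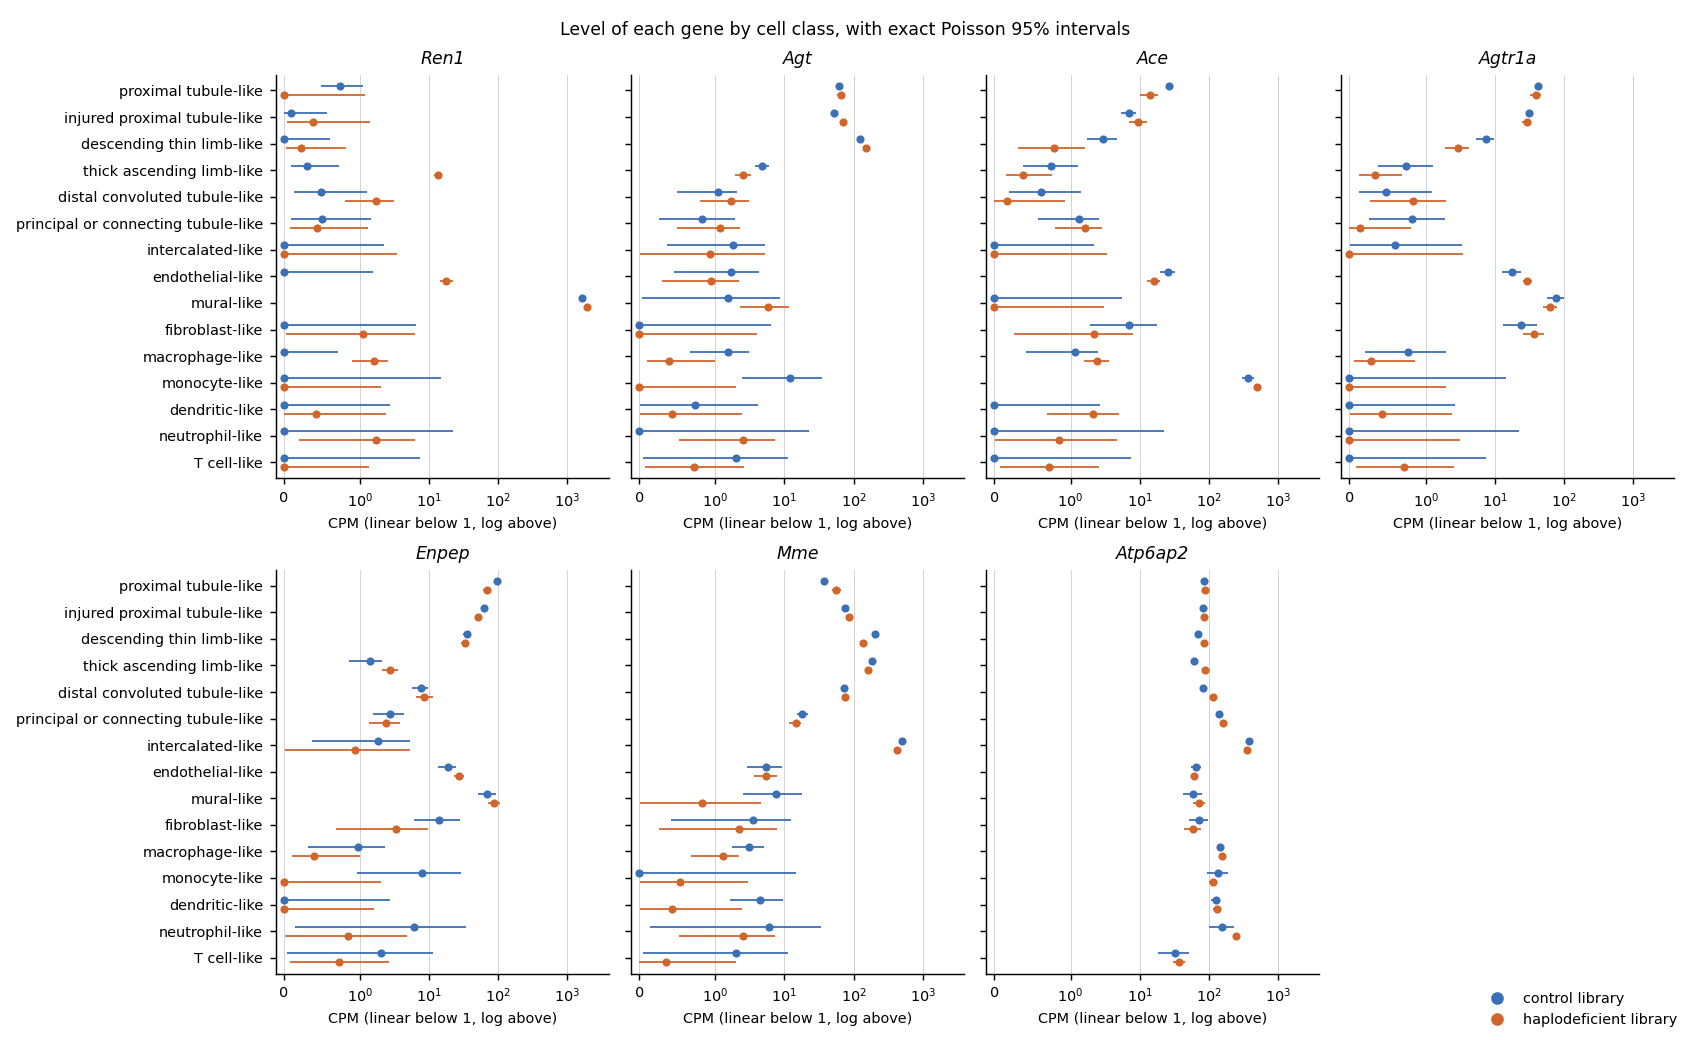
CPM of each gene (x axis, linear below 1 and logarithmic above) in 15 cell classes (y axis) of the control (blue) and haplodeficient (orange) library, with exact Poisson 95% intervals as bars. Ren1 stands at 1607 and 1943 CPM in mural-like cells and at most at 17.7 CPM in the others, whereas Atp6ap2 lies at 32.2 CPM or more in all 15.

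Within classes no member passed the rule of size that was applied to every gene. A gene was judged in a class if it averaged 50 CPM or more and had 30 or more UMIs over both libraries, and it passed if its log2 ratio after adding 5 CPM was at least 1 in size and its Poisson intervals did not overlap. Of 28 pairs of a member and a class that could be judged, 0 passed, and of all 50043 pairs of a gene and a class 2.08% did. A count of 0 in so few pairs is not set apart from that share. The 28 pairs comprised Atp6ap2 in 14 classes, Mme in 5, Agt and Enpep in 3 each, and Ren1, Ace and Agtr1a in 1 each. The share of all genes that passed lay between 0.697% in injured proximal tubule-like and 4.83% in neutrophil-like cells. With Atp6ap2 as the 1 member judged, it was 2.44% in principal or connecting tubule-like, 2.79% in fibroblast-like, 0.968% in macrophage-like and 2.01% in dendritic-like cells. In T cell-like cells, with 2.52%, no member could be judged. With 1 library per group, a ratio inside the rule does not show that the libraries were alike.

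**Figure D2:**
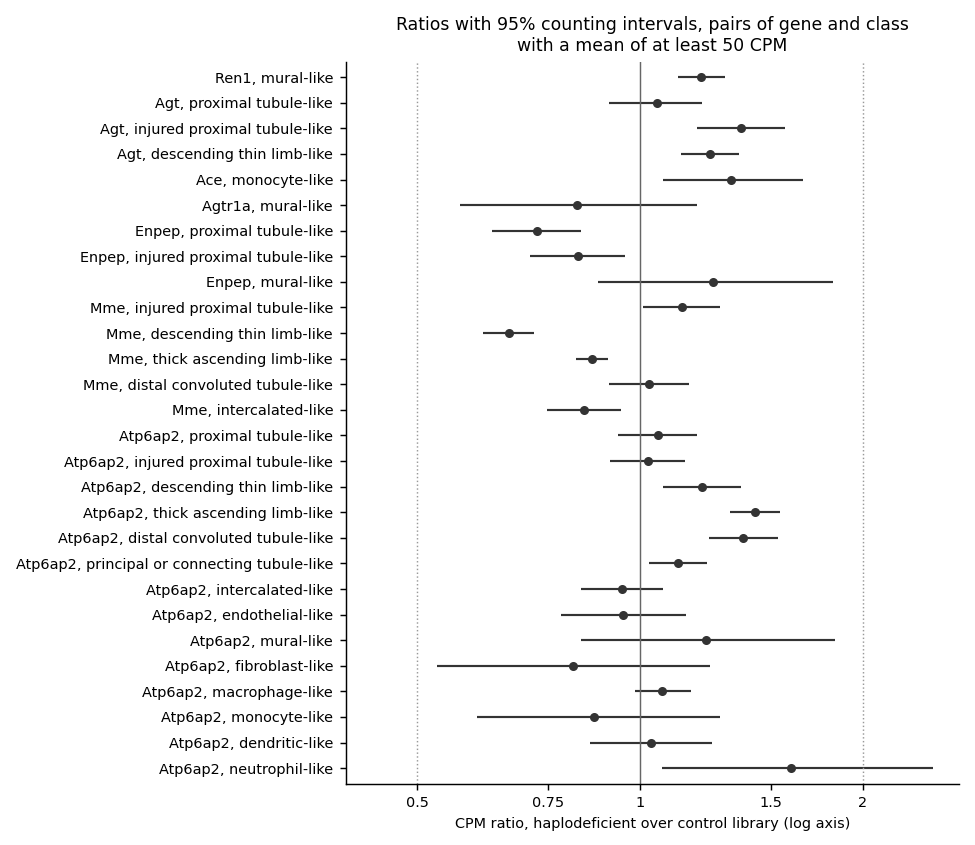
CPM ratio of the haplodeficient over the control library (x axis, logarithmic) for the 28 pairs of gene and class with a mean of at least 50 CPM, with exact conditional 95% counting intervals as bars. All points lie between the dotted lines at 0.5 and 2, from 0.665 for Mme in descending thin limb-like cells to 1.60 for Atp6ap2 in neutrophil-like cells.

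The promoters of the most confined and the most widespread of the 7 genes, Ren1 and Atp6ap2, are shown because they stand at the ends of this range. The sequences are those of RefSeq on GRCm38.p6, from 250 bases before to 50 bases after the start of transcription, which cover chr1:133350424-133350723 on the plus strand for Ren1 and chrX:12587509-12587808 on the plus strand for Atp6ap2. Capitals mark TATAAA in the Ren1 promoter and CCAAT or its reverse complement ATTGG in the Atp6ap2 promoter.
Ren1: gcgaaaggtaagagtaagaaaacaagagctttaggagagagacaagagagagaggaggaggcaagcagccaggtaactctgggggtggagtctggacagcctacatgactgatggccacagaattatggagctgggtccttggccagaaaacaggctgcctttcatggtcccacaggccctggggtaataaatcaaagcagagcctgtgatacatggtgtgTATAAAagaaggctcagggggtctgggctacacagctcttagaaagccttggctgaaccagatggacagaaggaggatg
Atp6ap2: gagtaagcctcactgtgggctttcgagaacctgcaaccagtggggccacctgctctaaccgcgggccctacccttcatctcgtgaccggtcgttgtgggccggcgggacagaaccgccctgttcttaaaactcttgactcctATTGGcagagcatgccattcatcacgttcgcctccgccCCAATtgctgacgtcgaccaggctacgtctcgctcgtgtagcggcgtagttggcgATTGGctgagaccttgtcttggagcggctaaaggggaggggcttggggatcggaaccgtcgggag
The Ren1 promoter has TATAAA 29 bases before the start, 1 CG dinucleotide and 51.3% G or C. The Atp6ap2 promoter has no TATAAA on either strand, 3 matches to CCAAT, 24 CG dinucleotides and 60.3% G or C. Among 32851 mouse promoters of the same length, 13.6% hold TATAAA and 37.4% hold CCAAT on either strand, the median number of CG dinucleotides is 7, and the median share of G or C is 52.7%. Promoters of 6 of the 7 genes were matched. The one of Agt also holds TATAAA, 30 bases before the start. On the opposite strand, as TTTATA, it lies at -31 from the start in promoter 1 of Ace, which has 29 CG dinucleotides. The promoter of Enpep holds TTTATA at -52 and at -1. The match is thus not particular to Ren1 and Agt among these genes. A match describes these letters and is not evidence of a bound factor.

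Renin is the enzyme that sets the pace of the pathway. Ren1 (ENSMUSG00000070645, plus strand of chromosome 1, 133350510 to 133360325 in GENCODE M21, GRCm38, protein-coding) was counted 1054 times in 192 control mural-like cells, at 1607 CPM (1512 to 1707). It was counted 2371 times in 271 haplodeficient mural-like cells, at 1943 CPM (1866 to 2023). These were 76.8% and 84.1% of all Ren1 UMIs in cells. The ratio was 1.21 (1.12 to 1.301). None of the 4 members judged in mural-like cells passed the size rule, against 0.945% of all genes there. Some mouse strains carry a further renin gene, Ren2, which is not among the genes of the files, so reads from such a copy could be counted as Ren1.

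The mural Ren1 signal came from few cells. A Ren1 UMI was found in 44 of 192 control and 63 of 271 haplodeficient mural-like cells, and 20 and 23 of these held at least 10. The control cells with most Ren1 had 189, 150, 127, 71 and 49 UMIs, and the haplodeficient ones 570, 342, 325, 166 and 124. The 5 highest cells carried 55.6% of the control and 64.4% of the haplodeficient mural UMIs. Ren1 made up 5.40% of all UMIs of the highest control cell and 5.28% of those of the highest haplodeficient cell. After thinning each cell to 1000 UMIs, Ren1 was detected in 18.6% (13.2 to 24.98) of the 183 control mural-like cells deep enough and in 16.9% (12.5 to 22.0) of the 255 haplodeficient ones, against 22.9% and 23.2% before thinning. Endothelial-like cells, taken as a class that should lack renin, had it in 0 of 335 thinned control cells (up to 0.896%) and 0.132% of 760 haplodeficient ones. Median depths were 3169.5 and 4149 UMIs in mural-like and 3996.5 and 3905.5 in endothelial-like cells. The intervals of the shares of positive cells overlapped between the libraries, and cells with at least 10 UMIs held 92.1% and 94.7% of the mural Ren1 UMIs.

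**Figure D3:**
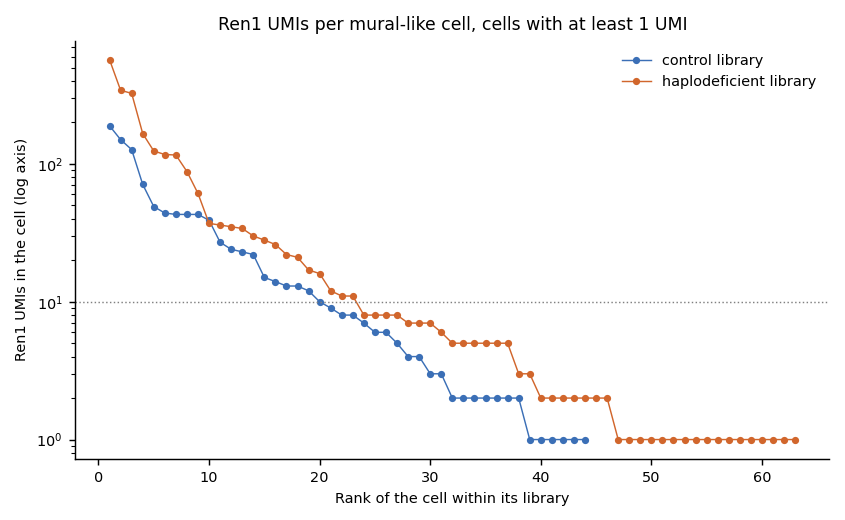
Ren1 UMIs in each mural-like cell with at least 1 (y axis, logarithmic), ordered by rank within its library (x axis), for the control (blue) and haplodeficient (orange) library; the dotted line marks 10 UMIs. The curves fall from 189 and 570 UMIs in the first cells to below 10 after 20 and 23 cells.

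The Ren1 ratio turned with the handling of doublets and of class names. With doublets kept it was 0.829 (0.781 to 0.879), and with each cell classed by its own markers alone it was 0.751 (0.701 to 0.806), both below 1. Leaving out the highest cell of each library gave 1.12 (1.03 to 1.22), and weighting subclusters alike gave 1.08. The barcodes removed as likely doublets held 831 control Ren1 UMIs, of which 556 were in a single barcode, and 927 haplodeficient UMIs, with at most 271 in a barcode. Subclusters of the mural-like class also went in opposite directions. Ren1 was at 2197 and 3256 CPM in mural subcluster 1, at 1639 and 353 CPM in subcluster 2, at 377 and 81.0 CPM in subcluster 3, and at 713 and 1548 CPM in subcluster 4, for control and haplodeficient library respectively. No direction of Ren1 in the mural wall can be read from these libraries.

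Mural-like cells with at least 10 Ren1 UMIs were compared with the other mural-like cells for the genes of the renin cell list. Akr1b7, an aldo-keto reductase known from renin cells, was at 1010 CPM (778 to 1290) against 218 CPM (182 to 259) in the control library, and at 919 CPM (756 to 1106) against 234 CPM (206 to 264) in the haplodeficient library. Rgs2, a regulator of G-protein signalling, was at 489 against 252 CPM and at 381 against 187 CPM. Adcyap1r1 had no UMI in the Ren1-rich cells of either library, against 3 and 1 in the others. Rgs5 was at 3093 against 4058 CPM and at 2706 against 2992 CPM, Gja4, a connexin, at 31.6 against 77.6 CPM and at 82.8 against 100.05 CPM, and Crip1 at 5571 against 4341 CPM and at 5478 against 5035 CPM. Of the 6 listed genes, Akr1b7 and Rgs2 thus had intervals above those of the other mural-like cells in both libraries. The contractile gene Acta2 was lower in the Ren1-rich cells of both libraries, at 6012 against 8725 CPM and at 7042 against 10639 CPM. Myh11, smooth muscle myosin, was at 1452 against 2637 CPM in the control but at 2615 against 2504 CPM in the haplodeficient library. Agtr1a was at 158 CPM on 10 UMIs against 69.2 CPM, and at 82.8 CPM on 10 UMIs against 61.8 CPM, with intervals that overlapped. Proximal tubule markers summed to 308 CPM in control and 39.3 CPM in haplodeficient mural-like cells, with 0 and 2 of 10 at 0, and their part in these values was not tested.

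In the other named classes most Ren1 UMIs lay in a few cells. Of 278 haplodeficient UMIs in thick ascending limb-like cells, 264 were in a single deep cell of 54378 UMIs, against 5 UMIs in the control. Endothelial-like cells had 0 control and 94 haplodeficient UMIs, or 17.7 CPM (14.3 to 21.6), which is at least 14.1-fold higher when the control is set to a floor of 3 counts. Of the 94, 92 were in endothelial subcluster 7 and 69 in a single cell. An unnamed cluster with endothelial and mural genes and deep cells held 275 control UMIs, 20.04% of all, in 13 of 43 cells, with cells of 143 and 81, and 40 haplodeficient UMIs, 1.42% of all, in 9 of 69 cells, with at most 9 in a cell. Proximal tubule-like cells had 27 control UMIs, 19 of them in 1 cell, and 0 in the haplodeficient library. Intercalated-like, monocyte-like and T cell-like cells had 0 Ren1 UMIs in both libraries. Free RNA, measured in barcodes of at most 100 UMIs, held Ren1 at 12.9 and 20.2 CPM.

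Angiotensinogen is the substrate of renin. Agt (ENSMUSG00000031980, minus strand of chromosome 8, 124556534 to 124569706, protein-coding) was highest in descending thin limb-like cells, at 123 CPM (115 to 132) on 750 UMIs of 365 control cells and at 153 CPM (145 to 161) on 1357 UMIs of 661 haplodeficient cells. The ratio was 1.24 (1.14 to 1.36), and 0 of the 3 members judged in this class passed the size rule, against 1.63% of all genes. A UMI was found in 167 and 301 of these cells, and the cells with at least 10 UMIs, 20 and 32 in number, carried 41.1% and 49.2% of the class total. Thinned to 1000 UMIs, 11.4% (8.27 to 15.1) of 361 and 9.65% (7.49 to 12.2) of 653 cells had an Agt UMI, against 45.8% and 45.5% unthinned, and 0 of 335 control (up to 0.896%) and 0 of 760 haplodeficient endothelial-like cells (up to 0.395%) had one. Median depths of the thin limb-like cells were 10156 and 8503 UMIs.

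In the proximal tubule Agt differed by segment. Over the whole proximal tubule-like class it was at 62.6 CPM on 2285 control UMIs and at 65.9 CPM on 208 haplodeficient UMIs, a ratio of 1.05 (0.908 to 1.21) that lay between 0.844 and 1.32 under the alternatives. Subcluster 8, S3-like by 4 of 5 markers and led by Akr1c18 and Cyp7b1, reached 367 CPM (327 to 410) in 67 control and 347 CPM (232 to 498) in 7 haplodeficient cells. Subcluster 4, also S3-like and led by Slc5a1 and Slc5a8, had 74.6 and 69.5 CPM, and the S1-like subcluster 2 had 25.3 and 18.6 CPM. In the control library Agt was thus lower in S1-like than in S3-like cells, with intervals that did not overlap, whereas the haplodeficient S1-like value rests on 3 UMIs. Injured proximal tubule-like cells, named from markers such as Havcr1 and Vcam1, had 51.6 CPM in the control and 70.7 CPM in the haplodeficient library, a ratio of 1.37 (1.19 to 1.57). None of the 4 members judged there passed the size rule, against 0.697% of all genes. Proximal tubule-like cells held 61.7% of all control and 9.88% of all haplodeficient Agt UMIs, and descending thin limb-like cells 20.3% and 64.5%.

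**Figure D4:**
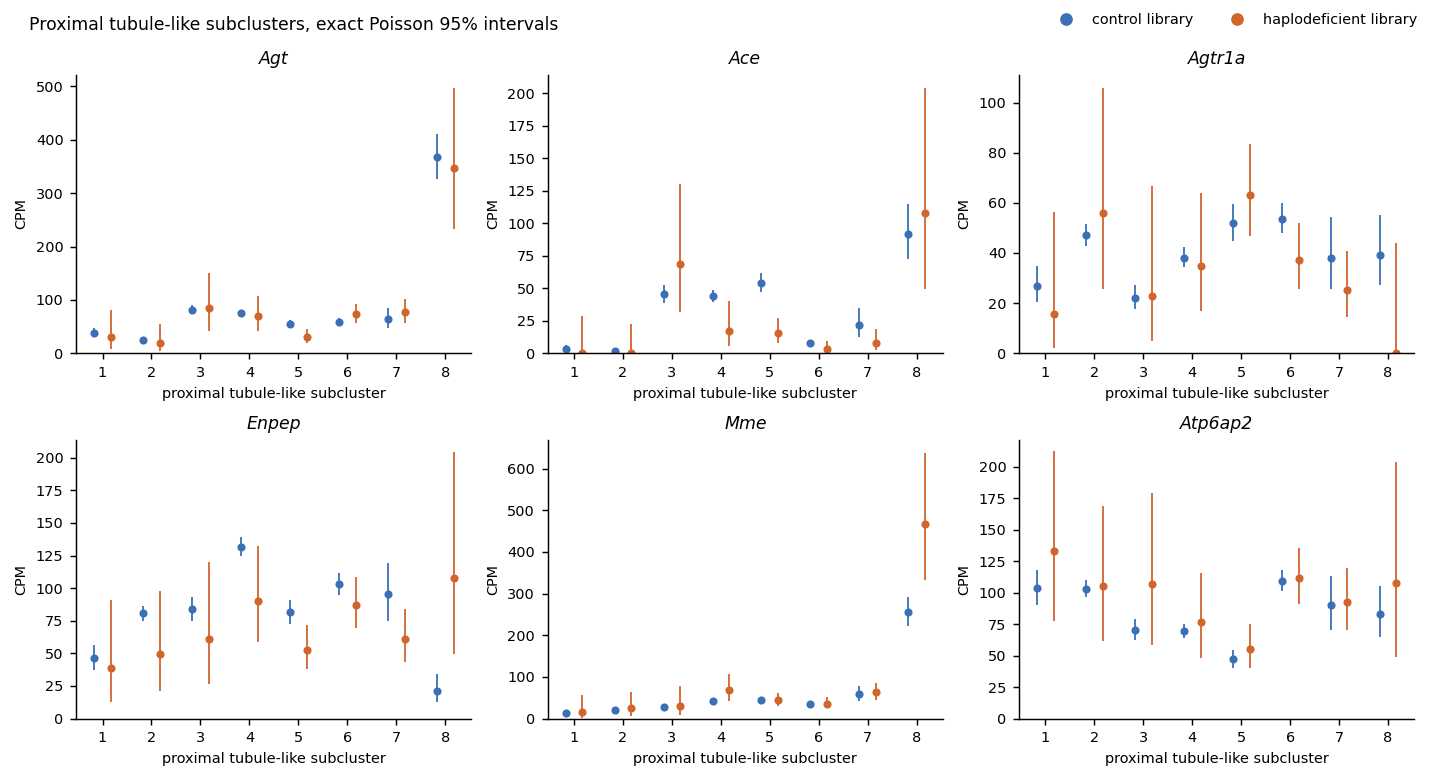
CPM (y axes) of 6 genes in proximal tubule-like subclusters 1 to 8 (x axes) of the control (blue) and haplodeficient (orange) library, with exact Poisson 95% intervals as bars. Agt, Ace and Mme are high in subcluster 8, where Enpep is at 21.5 CPM in the control library; the haplodeficient intervals are wide because the subclusters hold between 7 and 121 cells of that library.

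Angiotensin-converting enzyme makes angiotensin II and degrades bradykinin. Ace (ENSMUSG00000020681, plus strand of chromosome 11, 105967945 to 105989964, protein-coding, overlapped by the antisense gene Gm11651) was highest in monocyte-like cells, at 372 CPM (301 to 455) on 94 UMIs of 56 control cells and at 494 CPM (463 to 527) on 915 UMIs of 374 haplodeficient cells. The ratio was 1.33 (1.07 to 1.66), and 2.03 (1.01 to 4.77) on 8 and 167 UMIs with each cell classed by its own markers. Of the 2 members judged there 0 passed the size rule, against 3.44% of all genes. This cluster was led by Adgre4, Itgal, Chil3 and Treml4. Thinned to 1000 UMIs, 56 control monocyte-like cells had Ace in 30.4% (18.8 to 44.1) and 373 haplodeficient ones in 36.7% (31.8 to 41.8), against 71.4% and 73.5% unthinned. After the same thinning 0 of 164 (up to 1.83%) and 0 of 975 T cell-like cells (up to 0.308%) had one, and median depths were 4184 and 4480 UMIs in monocyte-like and 2660 and 2547.5 in T cell-like cells. The signal was spread over cells, the highest holding 7.45% of the control and 2.19% of the haplodeficient UMIs. Macrophage-like cells had 1.16 and 2.44 CPM. Monocyte-like cells were 0.641% of control and 4.06% of haplodeficient cells, and the class held 7.42% and 77.6% of all Ace UMIs. Its free RNA share was estimated at 10.3% of the control and 2.81% of the haplodeficient UMIs, and proximal tubule markers in it summed to 522 and 5.40 CPM. The part of these in the Ace ratio was not tested.

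Within the vessel wall Ace lay mainly in arterial-like endothelial cells. Ace was at 25.5 CPM (19.5 to 32.7) on 61 UMIs of control endothelial-like cells and at 16.2 CPM (12.9 to 19.99) on 86 UMIs of haplodeficient ones, a ratio of 0.635 (0.452 to 0.897). The arterial-like subcluster 4 had 47 of the 61 and 60 of the 86 UMIs, at 100.2 CPM (73.6 to 133) and 115 CPM (88.0 to 148), a ratio of 1.15 (0.773 to 1.72). Glomerular-like cells of subcluster 5 had 20.8 and 13.1 CPM, and the other subclusters were at most at 8.59 CPM. With subclusters weighted alike in both libraries the endothelial ratio was 0.986. This weighting was chosen after the data were seen and has no interval. The cause of the lower class value was not tested. Mural-like cells had no Ace UMI in either library, of 655802 and 1220307 UMIs.

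On the proximal tubule brush border, where converting enzyme also acts on filtered peptides, Ace was at 26.6 CPM on 971 control UMIs and at 13.9 CPM on 44 haplodeficient UMIs. The ratio was 0.524 (0.378 to 0.708). Under a mitochondrial limit of 25% it was 0.343 (0.248 to 0.464). The level differed between subclusters: the S1-like subcluster 2 had 1.64 CPM in the control and 0 UMIs in 18 haplodeficient cells, whereas subclusters 3, 4 and 5 had 45.4, 43.9 and 54.0 CPM in the control and 68.6, 17.4 and 15.5 CPM in the haplodeficient library. Subcluster 8 had 91.8 and 108 CPM. In subcluster 5, with 349 and 84 cells, the ratio was 0.287 (0.146 to 0.512) on 203 and 12 UMIs. By cluster, Ace was at 46.4 CPM in the control and 26.2 CPM in the haplodeficient library in cluster 4. Cluster 5 had 1.82 and 1.73 CPM. The haplodeficient value was the higher one in cluster 10 (5.46 and 7.08 CPM), cluster 11 (44.2 and 58.6 CPM) and cluster 34 (90.9 and 106 CPM). Clusters 4 and 11 held smaller parts of the haplodeficient than of the control class. The cause of the lower class value was not tested. A mean below 50 CPM kept this class outside the size rule for Ace.

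The type 1 receptor carries most of the vascular effects of angiotensin II. Agtr1a (ENSMUSG00000049115, plus strand of chromosome 13, 30336441 to 30382867, protein-coding, with the gene Gm48161 inside an intron on the same strand) was highest in mural-like cells, at 77.8 CPM (57.9 to 102) on 51 control UMIs and at 63.9 CPM (50.5 to 79.8) on 78 haplodeficient UMIs. The ratio was 0.822 (0.570 to 1.19), an interval that includes 1. A receptor UMI was found in 38 control and 47 haplodeficient mural-like cells, and none had more than 4 and 6. Mural subcluster 3, which was led by Ifitm1, Csmd1 and Lrriq1 and stayed unnamed, held 31 and 50 cells and had most, with 22 of the 51 and 40 of the 78 UMIs of the class, at 230 CPM (144 to 349) and 202 CPM (145 to 276), and it was the subcluster with least Ren1. Fibroblast-like cells had 24.3 CPM on 14 UMIs and 37.3 CPM on 34 UMIs. Thinned to 1000 UMIs, 8.20% (4.66 to 13.2) of control and 7.45% (4.55 to 11.4) of haplodeficient mural-like cells had an Agtr1a UMI, against 19.8% and 17.3% unthinned, and in monocyte-like cells none of 56 and none of 373 had one (up to 5.36% and 0.804%).

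In proximal tubule-like cells Agtr1a was at 42.1 CPM (39.98 to 44.2) on 1535 control UMIs and at 39.3 CPM (32.7 to 46.8) on 124 haplodeficient UMIs, a ratio of 0.934 (0.771 to 1.12). Injured proximal tubule-like cells had 31.6 and 29.0 CPM. The proximal tubule-like class held 73.6% of all control and 18.2% of all haplodeficient Agtr1a UMIs. Between its subclusters the receptor ranged from 22.2 CPM in subcluster 3 to 53.6 CPM in subcluster 6 of the control library.

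Endothelial-like cells had 42 and 158 Agtr1a UMIs, or 17.5 and 29.7 CPM, but 38 and 147 of these were in subcluster 7. That subcluster had 13 control and 29 haplodeficient cells with a median of 18171 UMIs and was led by Magi2, Gata3 and Itga8, genes of podocytes and mesangial cells, beside endothelial markers. Without it the ratio was 1.304 (0.386 to 5.62) in place of 1.69 (1.199 to 2.44). With cells classed by their own markers it was 1.04 (0.785 to 1.38), with subclusters weighted alike 1.11, with doublets kept 0.393, and with each library clustered on its own 0.933, so no direction holds for Agtr1a in endothelial-like cells. Agtr1b, the gene of the other mouse type 1 receptor, had 12 and 40 UMIs over all cells, 10 and 24 of them in mural-like cells.

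**Figure D5:**
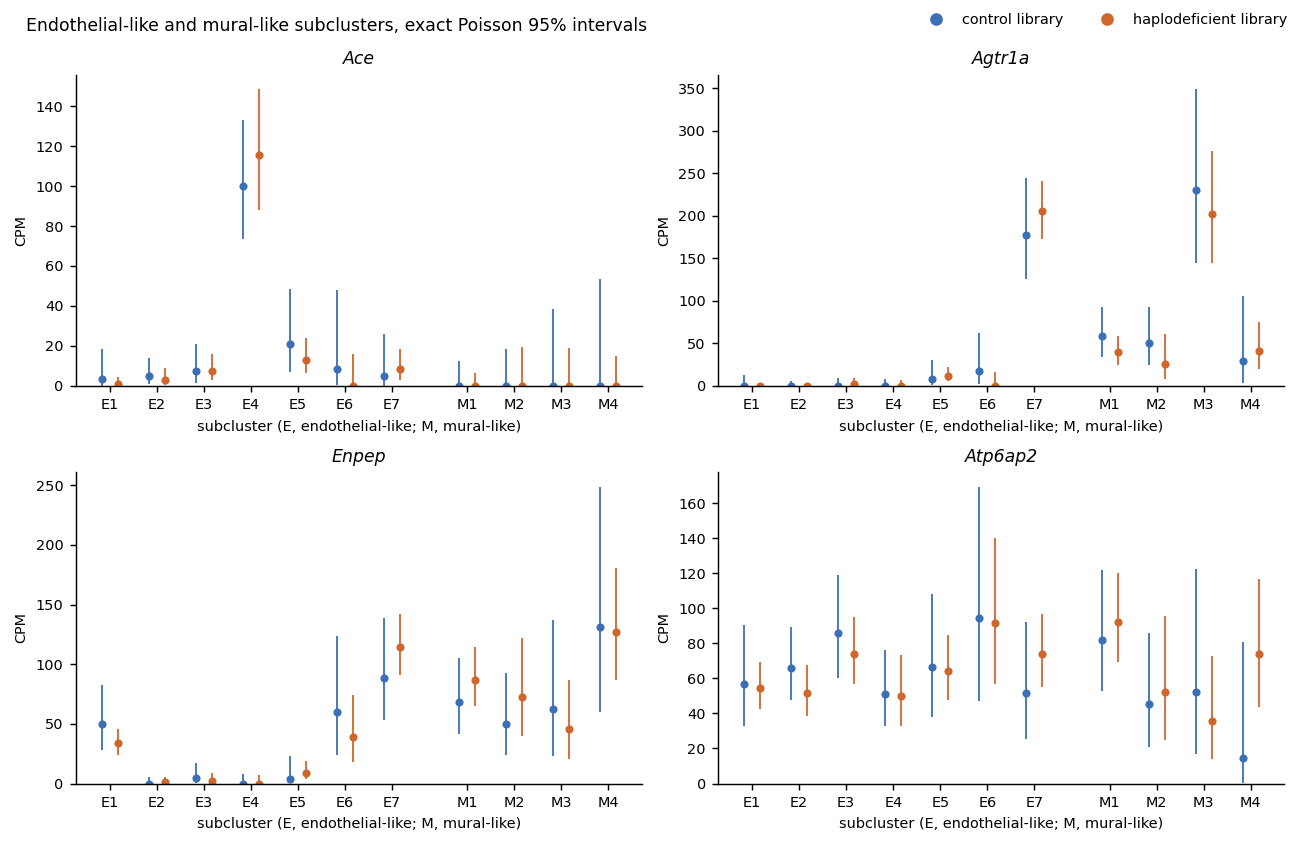
CPM (y axes) of Ace, Agtr1a, Enpep and Atp6ap2 in 7 endothelial-like (E1 to E7) and 4 mural-like (M1 to M4) subclusters (x axes) of the control (blue) and haplodeficient (orange) library, with exact Poisson 95% intervals as bars. Ace is high in E4, Agtr1a in E7 and M3, and Enpep in E1, E6, E7 and the mural-like subclusters, in both libraries.

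Aminopeptidase A removes the first residue of angiotensin II and so makes angiotensin III. Enpep (ENSMUSG00000028024, minus strand of chromosome 3, 129269175 to 129332720, protein-coding, with the pseudogene Gm42628 on the opposite strand) was, by the mean of both libraries, highest among named classes in proximal tubule-like cells, at 95.2 CPM (92.1 to 98.4) on 3474 control UMIs and at 69.0 CPM (60.2 to 78.8) on 218 haplodeficient UMIs. The ratio was 0.725 (0.630 to 0.832). None of the 3 members judged in this class passed the size rule, against 2.71% of all genes. In subclusters 1 to 7 the haplodeficient value was the lower one each time, with an interval of the ratio below 1 in subcluster 5 (0.650, 0.457 to 0.902) and subcluster 7 (0.645, 0.426 to 0.962). Subcluster 8 went the other way, with 21.5 CPM on 18 UMIs against 108 CPM on 9 UMIs in 7 cells. The control library had its highest level in the S3-like subcluster 4, at 132 CPM (124 to 139), against 90.4 CPM (59.0 to 132) in 16 haplodeficient cells. Injured proximal tubule-like cells had 62.0 and 51.1 CPM, a ratio of 0.824 (0.710 to 0.953). Thinned to 1000 UMIs, 7.29% (6.36 to 8.31) of 2838 control and 4.94% (2.85 to 7.90) of 324 haplodeficient proximal tubule-like cells had an Enpep UMI, against 50.4% and 31.9% unthinned. In intercalated-like cells the thinned shares were 0 of 163 (up to 1.84%) and 0 of 105 (up to 2.86%). Median depths were 10567 and 6335 UMIs in proximal tubule-like and 9059.5 and 9314.5 in intercalated-like cells. The median mitochondrial share was 23.0% and 7.20% of UMIs in the proximal tubule-like cells of the 2 libraries. With mitochondrial UMIs left out of the total the ratio was 0.628 (0.545 to 0.720).

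The peptidase was also measured in the vessel wall. Enpep was at 68.6 CPM (50.1 to 91.8) in control and at 86.0 CPM (70.4 to 104) in haplodeficient mural-like cells, with 38 and 73 positive cells and at most 3 and 6 UMIs in a cell. In the haplodeficient library this was above the 69.0 CPM of proximal tubule-like cells, with intervals that overlapped. Endothelial-like cells had 18.4 and 26.9 CPM, a ratio of 1.46 (1.04 to 2.10). The gene was in capillary-like subclusters 1 (49.9 and 33.6 CPM) and 6 (60.1 and 39.3 CPM) and in subcluster 7, and it had no UMI in the arterial-like subcluster 4, where Ace was high. The endothelial ratio was 0.788 with subclusters weighted alike, 0.793 with each library clustered on its own and 0.942 with each cell classed by its own markers, so no direction holds for it either. An unnamed cluster led by Tnc, Igfbp2, Tagln and Wnt16, with podocyte markers, of 94 control and 288 haplodeficient cells, had 148 CPM (126 to 173) and 189 CPM (175 to 203), above the value of any named class. It held 3.29% and 36.7% of all Enpep UMIs.

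Neprilysin degrades angiotensin I to angiotensin 1-7 and cuts natriuretic peptides. Mme (ENSMUSG00000027820, plus strand of chromosome 3, 63241537 to 63386030, protein-coding) was highest in intercalated-like cells, the acid- and base-secreting cells of the collecting system, at 509 CPM (475 to 544) on 850 UMIs of 172 control cells and at 427 CPM (389 to 468) on 459 UMIs of 108 haplodeficient cells. The ratio was 0.839 (0.747 to 0.941), and 0 of the 2 members judged there passed the size rule, against 2.94% of all genes. Thinned to 1000 UMIs, 39.3% (31.7 to 47.2) of 163 control and 32.4% (23.6 to 42.2) of 105 haplodeficient cells had a UMI, against 0.299% and 0.132% of endothelial-like cells. Unthinned shares were 73.8% and 77.8%.

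Along the nephron Mme was found in several further segments. It was at 207 CPM (196 to 219) in control and at 138 CPM (130 to 146) in haplodeficient descending thin limb-like cells, a ratio of 0.665 (0.614 to 0.720). Thick ascending limb-like cells had 187 CPM (181 to 194) and 161 CPM (156 to 166), a ratio of 0.860 (0.818 to 0.903). In this class, 765 of 1049 and 826 of 1173 cells had a UMI. Distal convoluted tubule-like cells had 72.9 and 74.9 CPM, and principal or connecting tubule-like cells, next to the intercalated cells in the tissue, only 18.2 and 14.5 CPM. Proximal tubule-like cells had 37.4 CPM on 1365 UMIs and 56.1 CPM on 177 UMIs, a ratio of 1.499 (1.27 to 1.75). With each library clustered on its own it was 2.61 (2.36 to 2.88), and with subclusters weighted alike 1.24. The median log2 ratio of all judged genes in this class was 0.20. Mme, which could not be judged there, was at 0.53. Median mitochondrial shares in the class were 23.0% and 7.20%. The S3-like subcluster 8 had 255 CPM (222 to 292) in 67 control and 466 CPM (331 to 637) in 7 haplodeficient cells, while subclusters 1 to 3 had 13.5, 20.1 and 28.2 CPM in the control and 15.6, 24.8 and 30.5 CPM in the haplodeficient library. Mural-like cells had 5 and 1 UMIs and monocyte-like cells 0 and 1. An unnamed cluster of deep cells held markers of intercalated and of principal or connecting tubule cells, in 290 control and 233 haplodeficient cells. It had Mme at 167 and 122 CPM, a ratio of 0.732 (0.676 to 0.794). The unnamed cluster with podocyte markers had 171 and 109 CPM, a ratio of 0.639 (0.534 to 0.766).

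The (pro)renin receptor binds renin and prorenin and is also an accessory subunit of the vacuolar proton pump. Atp6ap2 (ENSMUSG00000031007, plus strand of chromosome X, 12587801 to 12617049, protein-coding) was found in every class. It was highest in intercalated-like cells, which are rich in that pump, at 382 CPM (353 to 413) on 638 control UMIs and at 361 CPM (326 to 399) on 388 haplodeficient UMIs, a ratio of 0.945 (0.831 to 1.07). Among the named classes neutrophil-like cells followed, at 158 CPM on 26 UMIs and 252 CPM on 298 UMIs. Then came macrophage-like cells at 148 and 158 CPM and principal or connecting tubule-like cells at 143 and 161 CPM. The intervals of these 3 overlapped in the control library, as did those of the last pair in the haplodeficient library, so their order is not settled there. T cell-like cells had least, at 32.2 CPM on 16 UMIs and 36.9 CPM on 103 UMIs. The unnamed cluster of deep cells with intercalated markers had 240 CPM on 2035 control UMIs and 247 CPM on 2130 haplodeficient UMIs. The single cells with most Atp6ap2 UMIs, up to 24 and 26, lay in that cluster. In 4 tubule classes the haplodeficient level was the higher one with an interval of the ratio above 1: principal or connecting tubule-like cells, with a ratio of 1.13 (1.03 to 1.23), thick ascending limb-like cells with 62.2 and 88.9 CPM, a ratio of 1.43 (1.32 to 1.54), distal convoluted tubule-like cells with 82.7 and 114 CPM, a ratio of 1.38 (1.24 to 1.53), and descending thin limb-like cells with 69.97 and 84.8 CPM, a ratio of 1.21 (1.07 to 1.37). The median log2 ratio of all judged genes was 0.07 in thick ascending limb-like and 0.11 in distal convoluted tubule-like cells, where Atp6ap2 was at 0.48 and 0.44. Of all genes 1.17% and 1.72% passed the size rule in these classes, and Atp6ap2 did not. Proximal tubule-like, endothelial-like and mural-like cells had 85.2 and 89.9 CPM, 65.6 and 62.1 CPM, and 59.5 and 72.9 CPM, with intervals of the ratio that include 1. In endothelial-like cells it was the 1 member judged and did not pass the size rule, against 0.878% of all genes.

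For each member the 3 genes with the most similar pattern were taken by the correlation of log2(CPM + 5) over 30 values, 15 classes in 2 libraries, among 8476 genes with at least 50 CPM in at least 1 value. These values share libraries and depth, so r is a description. For Ren1 they were Slc38a11 (r = 0.977), Tcap and Ndst3, all highest in mural-like cells. For Agt they were Galnt14 (0.969), 1700016C15Rik and Osr2, and for Ace Eif4g3 (0.921), S1pr5 and Marco, all 3 highest in monocyte-like cells. Agtr1a was most like Htra1 (0.968), Jam3 and Palld, genes of fibroblast-like and mural-like cells. Enpep was most like Fads3 (0.876), Arhgap42 and Ntn1, and Mme like Pkp2 (0.921), Marveld3 and Kif21a, all 3 highest in intercalated-like cells. For Atp6ap2 the closest were Atp6v0c (0.846), Atp6v0b and Atp6v0e, which encode subunits of the vacuolar proton pump. Among the members themselves Agtr1a and Enpep had the highest correlation (0.843), and Agt and Enpep the next (0.690).

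Of 20 other genes of the pathway, 0 passed the size rule in the 15 named classes, over 55 pairs of a gene and a class that could be judged. Of all pairs 2.08% passed, a share from which 0 of 55 is not set apart either. In an unnamed cluster led by genes of cell division, with 75 and 220 cells of a median of 1212 and 947.5 UMIs, 6 could be judged and 3 passed, against 8.34% of all genes there. Ctsa had 55.8 and 137 CPM there, a ratio of 2.46 (1.73 to 3.56), and Klk1, a kallikrein, 41.5 and 207 CPM. Cltrn had 114 and 29.6 CPM, a ratio of 0.260 (0.162 to 0.403). Free RNA was estimated at 15.9% of the control and 21.6% of the haplodeficient UMIs of this cluster, more than in any named class. The part of free RNA and of cell makeup in these values was not tested. In proximal tubule-like cells Cltrn, which carries amino acid transporters to the brush border, was at 1996 and 1736 CPM, Agtrap, which binds the type 1 receptor, at 71.6 and 73.2 CPM, and Ctsa, a lysosomal carboxypeptidase, at 127 and 153 CPM. In mural-like cells 3 could be judged (Lnpep, Ctsa and Nr3c2), with a median of -0.08 against 0.07. Endothelial-like cells had 4, with a median of -0.22 against -0.003. Among them Nr3c2, the mineralocorticoid receptor through which aldosterone acts, was at 249 CPM on 596 UMIs in the control and 123 CPM on 652 UMIs in the haplodeficient library, a ratio of 0.493 (0.440 to 0.552) whose log2 after adding 5 CPM, -0.99, lay just inside the rule. Lnpep, an aminopeptidase that binds angiotensin IV, was at 102 and 88.4 CPM there, Prcp, a carboxypeptidase, at 70.6 and 58.5 CPM, and Ctsa at 56.8 and 50.1 CPM. In macrophage-like cells, where 0.968% of all genes passed, Anpep was at 52.9 and 52.7 CPM, Lnpep at 103 and 75.9 CPM, Ctsa at 459 and 494 CPM, Prcp at 107 and 78.2 CPM, and Rnpep at 67.7 and 65.2 CPM. Receptors other than type 1 had few UMIs: Agtr2 had 3 and 2 UMIs over all cells, and Mas1, the receptor of angiotensin 1-7, had 27 and 21. Chymase Cma1, a mast cell enzyme that can make angiotensin II, had 0 and 4.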

How the data were processed

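Single-cell RNA was measured in 2 libraries of injured mouse kidney, 1 per group, made with droplet-based 3′-end chemistry after enzymatic dissociation, per the labels' protocols. A cell-hashing library is mentioned there and was not analysed here. The authors deposited raw UMI counts of each gene in each barcode, without a filter on cells. Per the file headers they come from Cell Ranger 4, and per the submitters' processing notes the build was mm10. The annotation was not given in the sources used here. Of 32285 gene identifiers 32158 matched GENCODE M21, the source of the coordinates.

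Barcodes were kept from 500 UMIs and 200 genes upward and up to 50% mitochondrial UMIs, which left 9452 control and 10026 haplodeficient barcodes. Scrublet, in scanpy 1.11.5, scored doublets, and the top-scoring 0.8% per 1000 cells (715 and 804) were removed. Both libraries were clustered together on 2000 variable genes, without the 7 members and the 20 pathway genes, by 30 principal components, 15 neighbours and the Leiden method at resolution 1 (leidenalg 0.10.2). Of the 37 clusters, those with at least 3 markers of a class at 2-fold or more were named, and 5 stayed unnamed because their leading genes, depth or markers pointed to another class or to none. Proximal tubule-like, endothelial-like and mural-like cells were clustered again at resolution 0.5.

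UMIs were summed per class and library and scaled to CPM. With 1 library per group no test was run. Intervals are exact Poisson (CPM), Clopper-Pearson (shares) and conditional binomial (ratios), at 95%. A floor of 3 counts stands for 0. The size rule was tested on simulated counts that held counting error only. That test does not cover spread between cells or between libraries. The members, gene lists and markers were chosen with earlier results of these data known, and the scoring of clusters was set after the data were seen. The genes named were the 7 members in every class with at least 50 cells in each library, the pathway genes that could be judged in proximal tubule-like, mural-like, endothelial-like or macrophage-like cells, and the 3 genes most like each member, except that 1 pathway gene is not reported here; other genes, such as those of the renin cell list and pathway genes with few UMIs, were named after their values were seen. Alternatives covered doublets, filters, clustering, naming, scaling, free RNA and single cells.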

Additional observations from a re-analysis of the deposited data

How the results depend on the processing

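Over 22 ratios of members and 243 alternatives, 208 stayed within the counting interval of the reported value, 27 moved out of it and 8 reversed. No paired analysis was possible because each group is 1 library. Reversed values were those of Ren1 in mural-like cells with doublets kept (0.829) and with each cell classed by its own markers (0.751), Agtr1a in endothelial-like cells with doublets kept (0.393) and with each library clustered on its own (0.933), Enpep in endothelial-like cells with own clustering (0.793), with subclusters weighted alike (0.788) and with own markers (0.942), and Mme in mural-like cells with own markers (7.15, on 3 and 56 UMIs). Own markers also gave 1.61 for Agt in descending thin limb-like, 2.03 for Ace in monocyte-like (8 and 167 UMIs) and 0.683 for Mme in intercalated-like cells. Ren1 in mural-like cells was 1.12 without the highest cell of each library and 1.08 with subclusters weighted alike, Agt in descending thin limb-like cells 1.73 at Leiden resolution 2, and Enpep in proximal tubule-like cells 0.598 with own clustering, 0.626 with median-of-ratios scaling and 0.628 without mitochondrial UMIs in the total. With eligibility from 10 CPM, genes past the size rule numbered 122 in place of 31 (mural-like), 166 in place of 62 (descending thin limb-like), 193 in place of 112 (monocyte-like), 193 in place of 80 (proximal tubule-like), 257 in place of 108 (intercalated-like) and 98 in place of 33 (endothelial-like). The subcluster weighting and the removal of subclusters were chosen after seeing the data. Cell number limits the haplodeficient proximal tubule-like values (345 cells, with a median of 6335 UMIs) and the control monocyte-like values (56 cells). The causes of these shifts were not tested.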
